A study of Mus musculus with 44 samples.

Results

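Messenger RNA of 6 genes of maturing neutrophils, Camp, Ngp, Ltf, Lcn2, S100a8 and S100a9, was followed across 22 inbred mouse strains in a sorted population of blood-forming stem and progenitor cells. The genes were chosen by symbol, and every probe set that the platform's probe table gave to 1 of these symbols alone was taken. This yielded 7 probe sets, 1 for each gene and a second for Lcn2, of 12488 on the array; the 6 genes stood among 8252 genes with a named probe set, of which 5624 were bright enough to be tested. All 7 probe sets passed the filter on dim probe sets, and none had a deposited intensity under the floor of 16 on any array.

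The strains belonged to the BXD panel, recombinant inbred lines bred from the parents DBA/2 and C57BL/6, so that each line is homozygous for its own mixture of the parental genomes. The labels name no treatment. Each sample pooled the marrow of femurs and tibiae from 3 female mice aged 3 to 6 months, depleted of red cells by lysis. Cells with the least staining for lineage antibodies (the lowest 5%, against CD3e, B220, CD11b, TER119 and Gr-1) that carried Sca-1 and c-kit were sorted directly into lysis buffer, with yields of 16000 to 118000 cells over all samples. Gr-1 and CD11b are surface proteins of mature neutrophils, so the sort was set against the cells in which the 6 genes are best known. Each strain had 2 arrays of 1 colour (Affymetrix MG_U74Av2), and the 44 arrays fell by their titles into array series A (10 strains: BXD6, BXD8, BXD11, BXD12, BXD31, BXD32, BXD33, BXD38, BXD40 and BXD42) and array series B (12 strains: BXD1, BXD2, BXD5, BXD9, BXD14, BXD16, BXD18, BXD19, BXD21, BXD28, BXD34 and BXD39). No strain had arrays in both series. Levels are log2 intensities after quantile normalisation, and strains are compared for 1 probe set at a time, since brightness does not compare amounts between probe sets. The summed intensities of marker lists given below are the exception, and bright probe sets weigh most in them.

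Neutrophils store antimicrobial proteins in granules that are built in sequence while the cell matures. Primary granules, which hold myeloperoxidase and elastase, are made by early progenitors, and secondary granules, filled with lactoferrin, cathelicidin and lipocalin-2, are made later, under the control of transcription factors of the C/EBP family. Calprotectin, the heterodimer of S100a8 and S100a9, is a calcium- and zinc-binding protein that fills the cytosol of neutrophils and monocytes. These genes are textbook markers of cells well past the stem cell stage, and their transcripts are among the most abundant in marrow as a whole.

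The promoters of Camp, Ltf, Lcn2 and S100a8 are shown because these 4 genes had the most alike strain patterns described below. For Lcn2 this held only by its dimmer probe set, a choice made after its values were seen. By its brighter probe set the correlation over strain means was 0.128 with Camp, 0.217 with Ltf and -0.0732 with S100a8. Each run gives the 250 bases before the annotated start, read 5′ to 3′ on the strand of the gene, from the RefSeq promoter table of GRCm38.p6, which held all 6 genes. Capitals mark matches on either strand to TTNNGNAA, a loose form of the element that C/EBP factors bind. The windows lie at chr9:109849457-109849706 on the minus strand for Camp, chr9:111019042-111019291 on the plus strand for Ltf, chr2:32387740-32387989 on the minus strand for Lcn2 and chr3:90668821-90669070 on the plus strand for S100a8.
Camp: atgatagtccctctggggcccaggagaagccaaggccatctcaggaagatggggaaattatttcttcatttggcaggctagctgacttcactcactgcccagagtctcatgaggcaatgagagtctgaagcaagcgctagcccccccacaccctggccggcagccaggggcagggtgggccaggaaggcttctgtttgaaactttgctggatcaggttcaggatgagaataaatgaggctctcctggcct
Ltf: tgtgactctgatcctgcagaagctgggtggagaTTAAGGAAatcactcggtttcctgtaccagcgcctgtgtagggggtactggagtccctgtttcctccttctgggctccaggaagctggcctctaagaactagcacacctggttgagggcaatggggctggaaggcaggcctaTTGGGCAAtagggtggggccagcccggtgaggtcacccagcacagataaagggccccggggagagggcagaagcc
Lcn2: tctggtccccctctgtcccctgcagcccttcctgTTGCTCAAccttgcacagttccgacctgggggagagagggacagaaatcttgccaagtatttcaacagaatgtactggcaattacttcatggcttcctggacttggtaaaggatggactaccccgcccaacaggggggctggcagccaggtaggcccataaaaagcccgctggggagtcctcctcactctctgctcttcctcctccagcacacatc
S100a8: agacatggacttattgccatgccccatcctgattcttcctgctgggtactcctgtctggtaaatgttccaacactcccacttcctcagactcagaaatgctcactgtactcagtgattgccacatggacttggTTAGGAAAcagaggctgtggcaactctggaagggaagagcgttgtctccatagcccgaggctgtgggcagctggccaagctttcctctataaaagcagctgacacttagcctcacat

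TTNNGNAA was found in 5 of the 6 promoters, 3 matches in Ngp, 2 in Ltf, 2 in S100a9, 1 in Lcn2 and 1 in S100a8, and in none of the window of Camp. It is a common string: 36.8% of the 32851 promoters of the table held at least 1 match in the same 250 bases. GAGGAA, the core bound by the myeloid factor PU.1, was searched on both strands too and was found in Ltf (1 match), Lcn2 (1) and S100a8 (2), against 23.3% of all promoters. The TATA box TATAAA was found in the window of S100a8 alone, 30 bases before its start, against 12.4% of all promoters on either strand. None of the matches overlapped a match to another of these motifs. The matches describe letters in these windows and were not tied to binding in these cells.

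The labelled cell type was checked first. Kit, the receptor that the sort selected, averaged 9.44 on the log2 scale over the 44 arrays and did not differ detectably between strains within the array series (limma F test, adjusted p = 0.826), although it was 0.61 higher on the log2 scale in series B than in series A (limma, adjusted p = 0.000389), and Cd34, another progenitor surface gene, averaged 8.74 (0.757). Itgam, which encodes the CD11b chain that the lineage antibodies removed, averaged 4.47, close to the floor of 4, and had a deposited intensity under the floor on 12 arrays. Ly6g, the neutrophil antigen seen by Gr-1 antibodies, averaged 5.69, under the limit of 6.00 set for testing. The 2 arrays labelled BXD40 disagreed with each other, and so did the 2 labelled BXD42. H2-Ea, a class II gene that the C57BL/6 haplotype does not transcribe, read 7.57 on 1 BXD40 array and 4, the floor, on the other. It read 8.69 on 1 BXD42 array and 4.41 on the other. Which array of each strain went against its label is not known. Results below that change without these strains are given both ways. In RNA from bulk cells, fewer cells of a type and less RNA per cell cannot be told apart. The labels do not say which pool each of the 2 arrays came from, so p-values measure the spread between arrays, which may be partly technical.

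The first comparison asked whether the strains differed in these genes. A strain effect was found for 4 of the 7 probe sets, those of Camp, S100a8, S100a9 and 1 of Lcn2 (limma F test within array series, Benjamini-Hochberg adjusted p below 0.05). Over all 7453 tested probe sets 2.8% passed the same test. Ngp, Ltf and the other Lcn2 probe set did not pass. The genes were not switched on or off between strains. Their highest and lowest strain means differed by 2.36-fold to 3.20-fold in series A and by 1.94-fold to 4.08-fold in series B, the Lcn2 probe set 161684_r_at (1.48-fold and 1.87-fold) apart, against medians over all tested probe sets of 1.77-fold and 1.81-fold. BXD32 and BXD38 stood at the top and bottom of series A for most members, as the plot of levels by strain shows. BXD2 had the highest mean of series B, except for Ngp (BXD1) and Lcn2 161684_r_at (BXD16).

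**Figure D1:**
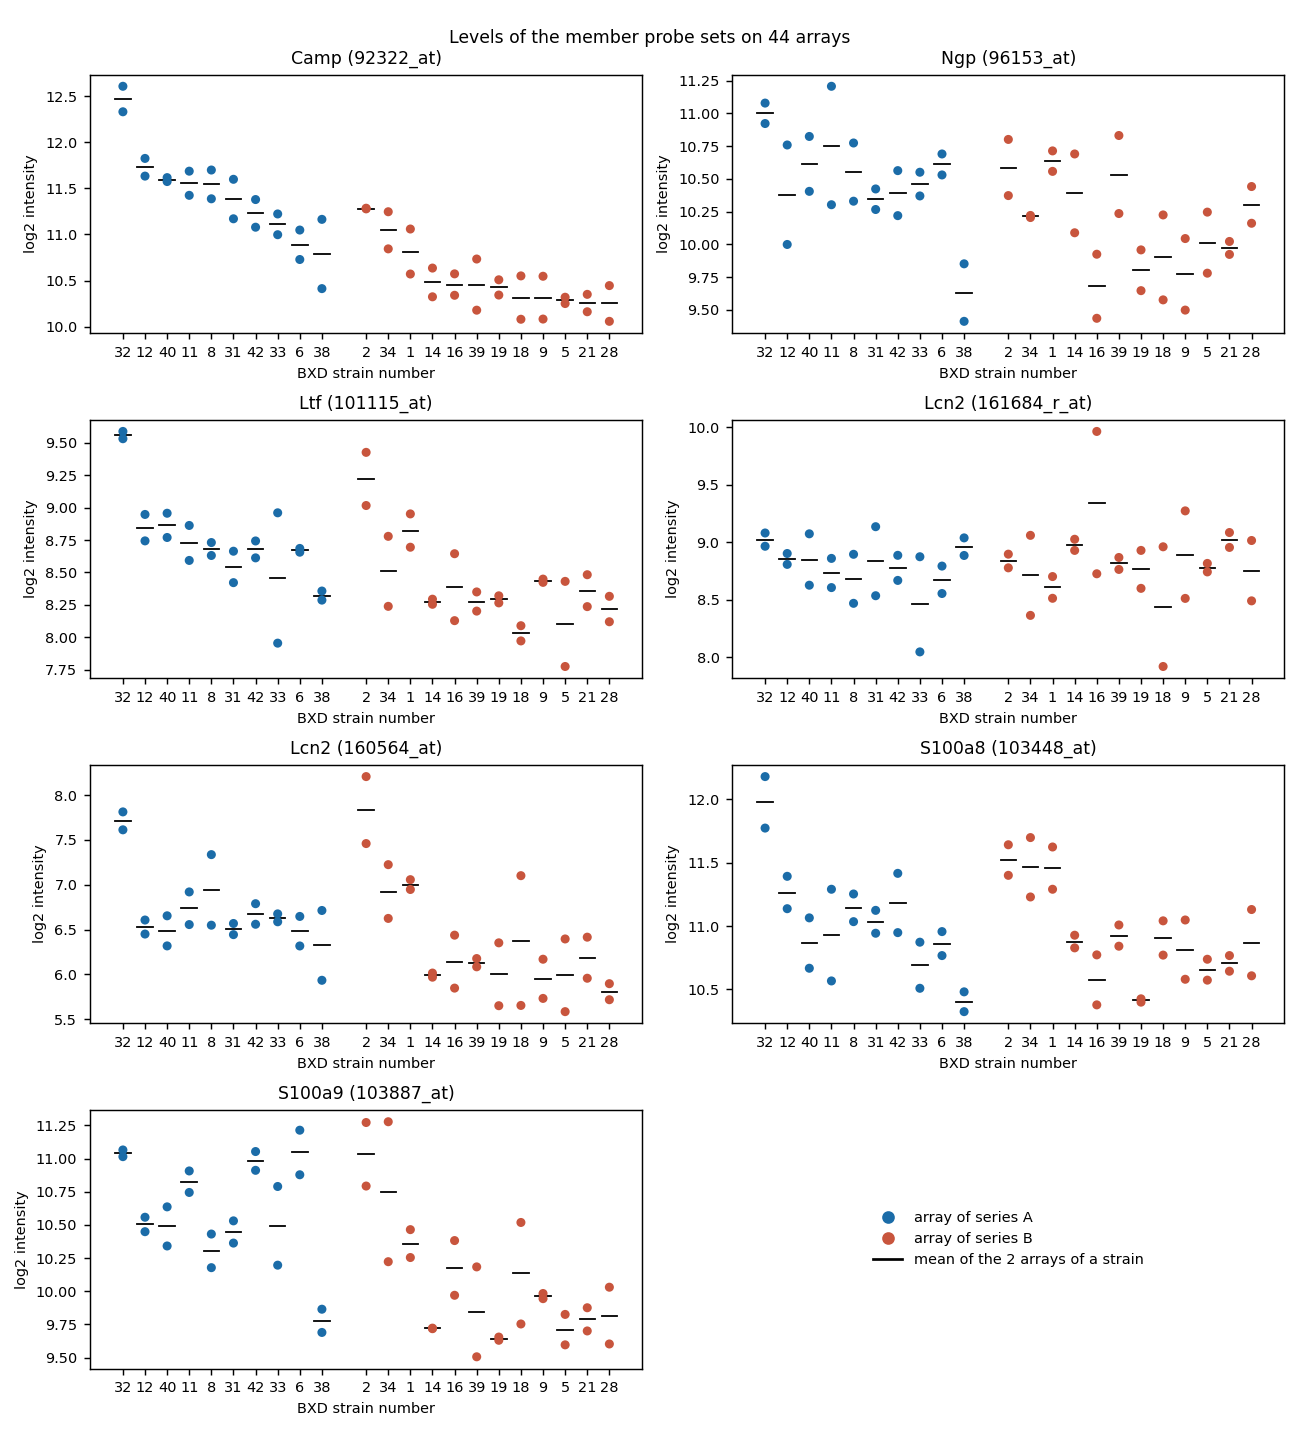
Log2 intensity (vertical axis) of the 7 member probe sets on each of 44 arrays, with strains along the horizontal axis in the order of their Camp means within array series A (blue, 10 strains) and B (red, 12 strains). Points are arrays and bars are means of the 2 arrays of a strain. BXD32 lies above the other strains of series A in the Camp, Ltf, S100a8 and Lcn2 160564_at panels, and the 2 arrays of a strain are no closer than those of different strains in the Lcn2 161684_r_at panel.

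Camp encodes cathelicidin, the precursor of an antimicrobial peptide that disrupts bacterial membranes. Its probe set 92322_at read 12.33 and 12.61 on the 2 BXD32 arrays, while the other 18 arrays of series A ran from 10.41 through a median of 11.38 to 11.82. The BXD32 arrays lay above every other array of their series. BXD12 (11.63 and 11.82) was second by its mean and clear of BXD40 (11.57 and 11.62), the next in order. Replicate 1 of BXD11 (11.69) and replicate 1 of BXD8 (11.70) lay above the lower BXD12 array. From BXD40 down neighbours overlapped, and BXD6 (10.73 and 11.05) and BXD38 (10.41 and 11.16) were lowest. In series B, BXD2 read 11.28 on both arrays, BXD34 10.84 and 11.25, BXD1 10.57 and 11.06, and the 18 arrays of the other 9 strains ran from 10.06 through 10.34 to 10.73. BXD2 lay above every other array of series B, BXD34 lay above all of the other 9 strains, and those 9 overlapped one another in an unbroken chain. The strain effect had an adjusted p of 0.00936, and the intraclass correlation, the share of variance within a series that lay between strains, was 0.679 (95% interval 0.373 to 0.854) against a median of 0.0386 over all tested probe sets. The call ended without BXD32 replicate 2 (adjusted p = 0.0591) or without the strain BXD32 (0.123).

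Ltf encodes lactoferrin, the iron-binding protein after which secondary granules are often identified. Probe set 101115_at read 9.53 and 9.59 in BXD32, against 7.95 to 8.96 with a median of 8.67 on the other 18 arrays of series A, and 9.02 and 9.43 in BXD2, against 7.77 to 8.95 with a median of 8.30 on the other 22 arrays of series B. Both strains lay clear of their series, and BXD1 (8.69 and 8.95) followed BXD2. Below these, each strain overlapped its neighbour in the order of means, with BXD38 (8.29 and 8.36) lowest by its mean in series A and BXD18 (7.97 and 8.09) in series B. Taken over all strains the effect missed the threshold (adjusted p = 0.0835, intraclass correlation 0.570, interval 0.209 to 0.798). The arrays of BXD33, at 7.95 and 8.96, held the widest gap within a strain for this gene, and Ltf passed without either of them (adjusted p = 0.0210 without replicate 1 and 0.00896 without replicate 2).

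Ngp encodes neutrophilic granule protein, a cystatin-related protein of secondary granules. Probe set 96153_at read 10.92 and 11.08 in BXD32 and 9.41 and 9.85 in BXD38, and the other 16 arrays of series A ran from 9.9996 through 10.48 to 11.21. BXD38 lay below every other array of its series, while BXD32 was topped by 1 array of BXD11 (10.30 and 11.21). In series B the means ran in the order BXD1, BXD2, BXD39, BXD14, BXD28, BXD34, BXD5, BXD21, BXD18, BXD19, BXD9 and BXD16, from 10.56 and 10.71 to 9.44 and 9.93, and no strain was separated from its neighbour in that order. The strain effect was not called (adjusted p = 0.284), and the interval of the intraclass correlation of 0.405 reached from -0.00638 to 0.703.

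Lcn2 encodes lipocalin-2, which withholds iron from bacteria by binding their siderophores, and its 2 probe sets gave different pictures. By 160564_at, BXD32 read 7.61 and 7.81 against 5.93 to 7.34 (median 6.58) on the other 18 arrays of series A, and BXD2 read 7.46 and 8.21 against 5.58 to 7.22 (median 6.13) on the other 22 arrays of series B. Both strains lay above all other arrays of their series, and BXD1 (6.95 and 7.06) and BXD34 (6.62 and 7.22) followed BXD2. By 161684_r_at, which was the brighter, BXD32 read 8.97 and 9.08 and BXD2 8.78 and 8.90, both inside the range of the other arrays (8.05 to 9.14 in series A and 7.92 to 9.96 in series B). The highest value of that probe set was on 1 array of BXD16, whose other array read 8.73. The strain effect was called for 160564_at (adjusted p = 0.0426, intraclass correlation 0.554) and not for 161684_r_at (0.975, intraclass correlation -0.253). Over the 22 strain means the 2 probe sets had r = -0.0900 (p = 0.700 by 100000 permutations within series). The call of 160564_at was near the threshold: it ended in 26 of the 44 fits that left out 1 array, with adjusted p up to 0.215 (without BXD2 replicate 2). The probe set averaged 6.52 over all arrays, close to the limit of 6.00 for testing, and it did not pass with no filter on dim probe sets (0.0782).

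S100a8 encodes the calprotectin subunit also called MRP8. Probe set 103448_at read 11.77 and 12.18 in BXD32 and 10.32 and 10.48 in BXD38, and the other 16 arrays of series A ran from 10.51 through 10.996 to 11.42. BXD32 lay above and BXD38 below every other array of the series. In series B, BXD2 (11.40 and 11.64), BXD34 (11.23 and 11.70) and BXD1 (11.29 and 11.62) could not be ordered among themselves, and all 6 of their arrays lay above the other 18, which ran from 10.38 through 10.77 to 11.13. BXD19 was lowest by its mean (10.40 and 10.43). The strain effect was called (adjusted p = 0.0127, intraclass correlation 0.673, interval 0.363 to 0.851), and the call ended without BXD32 replicate 1 (0.0653) or without the strain BXD32 (0.104).

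S100a9 encodes the other calprotectin subunit, MRP14. Its order in series A was not that of S100a8: BXD6 (10.88 and 11.21), BXD32 (11.01 and 11.06) and BXD42 (10.91 and 11.05) overlapped at the top. BXD11 (10.74 and 10.91) followed by its mean and overlapped BXD6. BXD38 (9.69 and 9.86) lay below every other array, which began at 10.18. In series B, BXD2 read 10.79 and 11.27 and BXD34 10.22 and 11.28, and the 18 arrays of the 9 strains other than these and BXD1 ran from 9.51 through 9.79 to 10.52. Both arrays of BXD2 exceeded that range, while 1 array of BXD34 lay within it. The strain effect was called (adjusted p = 0.0224, intraclass correlation 0.624, interval 0.288 to 0.826). It ended without BXD2 replicate 2 (0.0800), BXD38 replicate 1 (0.0502) or BXD38 replicate 2 (0.0658), and without the strain BXD2 (0.118).

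The second comparison set each strain against the rest of its array series, taken as the mean over those strains. Of the 7 probe sets in 22 strains, 7 comparisons passed, all of them higher, 3 in BXD32 and 4 in BXD2. The background over all probe sets and strains was 0.169% called higher, or 0.134% in BXD32 and 0.792% in BXD2. In BXD32, Camp was 2.23-fold above the rest of series A (difference 1.15 ± 0.20 SE on the log2 scale, adjusted p = 0.00580), S100a8 2.07-fold (1.05 ± 0.19, 0.0107) and Ltf 1.89-fold (0.92 ± 0.19, 0.0351). In BXD2, Lcn2 by 160564_at was 3.04-fold above the rest of series B (1.61 ± 0.28, adjusted p = 0.00164), S100a9 2.06-fold (1.04 ± 0.22, 0.00898), Ltf 1.85-fold (0.88 ± 0.19, 0.0129) and Camp 1.76-fold (0.82 ± 0.20, 0.0273). All tests were limma contrasts adjusted over the 7453 probe sets within each strain.

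Camp and Ltf were thus called in both strains. The others were called in 1 strain, with a difference of the same sign in the other: S100a8 was 0.64 above the rest in BXD2 (adjusted p = 0.0858), Lcn2 by 160564_at 1.12 in BXD32 (0.115) and S100a9 0.50 in BXD32 (0.780). BXD32 and BXD2 lie in different array series, and the difference between the 2 strains was not tested. Ngp was 0.59 above the rest in BXD32 (0.760) and 0.48 in BXD2 (0.395). The second Lcn2 probe set differed by 0.26 and 0.01. BXD38 was below the rest of series A for 6 of the 7 probe sets, by -0.94 for Ngp (0.0932), -0.90 for S100a9 (0.0692), -0.71 for Camp (0.151) and -0.70 for S100a8 (0.138), none of which passed. Leaving out 1 array also added calls: S100a9 was called lower in BXD38 in 5 of the 44 such fits (-0.90 to -0.94, adjusted p from 0.0242 to 0.0488, without either array of BXD18 or BXD34 or without BXD33 replicate 2) and Ngp in BXD38 in 1 (-0.99, 0.0456, without BXD11 replicate 1). Lcn2 by 160564_at was called higher in BXD32 without either array of BXD18 (1.12, 0.0451), S100a9 in BXD34 without its replicate 2 (1.26, 0.0149) and Lcn2 by 161684_r_at in BXD16 without its replicate 1 (1.18, 0.0298). Without BXD2 replicate 2 all 4 calls in that strain were lost (adjusted p from 0.230 for Lcn2 to 0.506 for Ltf), and without replicate 1 that of Camp (0.206). Without either array of BXD32 all 3 calls in it were lost (from 0.0815 for Camp to 0.729 for Ltf). In these fits the differences were between 0.68 and 1.29. That of S100a8 in BXD32 was also lost with arrays centred on their medians (0.94, adjusted p = 0.0544) or not normalised (0.90, 0.0692), and that of Ltf in BXD32 without BXD12 replicate 1 (0.0512) or BXD31 replicate 1 (0.0502).

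**Figure D2:**
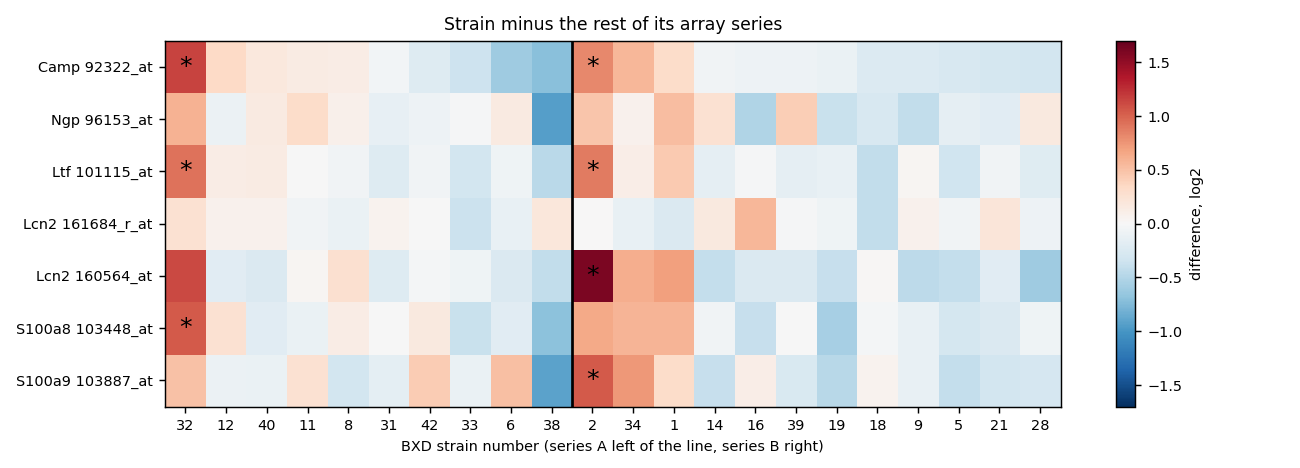
Level of a strain minus the rest of its array series on the log2 scale, for the 7 member probe sets (rows) and 22 strains (columns, series A left of the line and B right, ordered by Camp). Stars mark the 7 limma contrasts with adjusted p below 0.05. The BXD32 and BXD2 columns are above 0 in every row and the BXD38 column is below 0 in all rows except Lcn2 161684_r_at.

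The next question was whether the genes varied together. Strain means were centred on their series and correlated over the 22 strains, 15 pairs in all, with permutation of strains within series. With the brightest probe set of each gene, 10 of the 15 pairs passed (adjusted p below 0.05 over the 15). These were all 10 pairs among Camp, Ngp, Ltf, S100a8 and S100a9, with r between 0.558 and 0.872. No share over pairs of all tested genes is given, so how common such r values are on these arrays cannot be judged. Genes outside the members also reached this range, with 0.769 for Gys1 and Camp and 0.824 for Ppp1r15a and S100a9. Each was the tested gene outside the members closest to that member. By rho 8 pairs passed, those of Ngp with Ltf (adjusted p = 0.0602) and with S100a9 (0.0700) falling short. Camp and Ltf were most alike, with r = 0.872 (rho = 0.773, p = 2.0e-05, adjusted p = 0.00015), 0.910 in series A and 0.853 in series B. Camp and S100a8 had r = 0.863 (rho = 0.748, adjusted p = 0.00015), and Ltf and S100a8 r = 0.811 (rho = 0.555, adjusted p = 0.0003). The least alike of these pairs were Ngp and S100a9, with r = 0.558 (rho = 0.442, adjusted p = 0.0129 for r), a call that ended without BXD18 replicate 2 (0.0657) or BXD39 replicate 2 (0.0918).

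S100a8 and S100a9, whose products form 1 protein and whose genes are direct neighbours on chromosome 3, had r = 0.725 (rho = 0.592, adjusted p = 0.000712). This was lower than the values of Camp with Ltf and with S100a8; the difference between these correlations was not tested. Without the 2 strains farthest from the median of the first gene, usually BXD32 and BXD2, r was lower for Camp and Ltf (0.708), Camp and S100a8 (0.737), Ltf and S100a8 (0.645) and S100a8 and S100a9 (0.648). It lay above 0 in all 10 pairs, between 0.361 and 0.737. With both BXD32 and BXD2 left out 6 of the 15 pairs passed, and the pairs lost were Camp with Ngp (0.487), Camp with S100a9 (0.444), Ngp with Ltf (0.501) and Ngp with S100a9 (0.435). In the 10 strains of series A alone 4 pairs passed and in the 12 strains of series B alone 7.

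Lcn2 joined or left this group with the probe set. By 161684_r_at its 5 pairs had r between -0.238 and 0.217, and none passed. By 160564_at all 5 passed, with r = 0.843 with Ltf (adjusted p = 0.000193), 0.822 with S100a8 (0.0001), 0.821 with Camp (0.000112), 0.769 with S100a9 (0.000175) and 0.576 with Ngp (0.00666), so that all 15 pairs of the 6 genes passed, by rho as by r. The use of 160564_at was chosen after its values were seen.

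Between the 2 arrays of a strain no pair of members passed. The differences between the arrays of each strain were correlated over the 22 strains with 100000 sign flips, and r lay between -0.366 and 0.347 with the brightest probe sets and between -0.311 and 0.474 with the other Lcn2 probe set. None of the 15 pairs passed either way, which does not show that they were unrelated. The nearest were Camp and Lcn2 by 160564_at, with r = 0.474 within strains and the same sign in 17 of 22 strains (p = 0.0297, adjusted p = 0.246), and Ltf and Lcn2 by 160564_at, with r = 0.395 (p = 0.0328, adjusted p = 0.246). Camp and Ltf, the most alike between strains, had r = -0.170 within strains (p = 0.283). The 2 probe sets of Lcn2 had r = -0.567 within strains (p = 0.0204, a single test by sign flips).

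**Figure D3:**
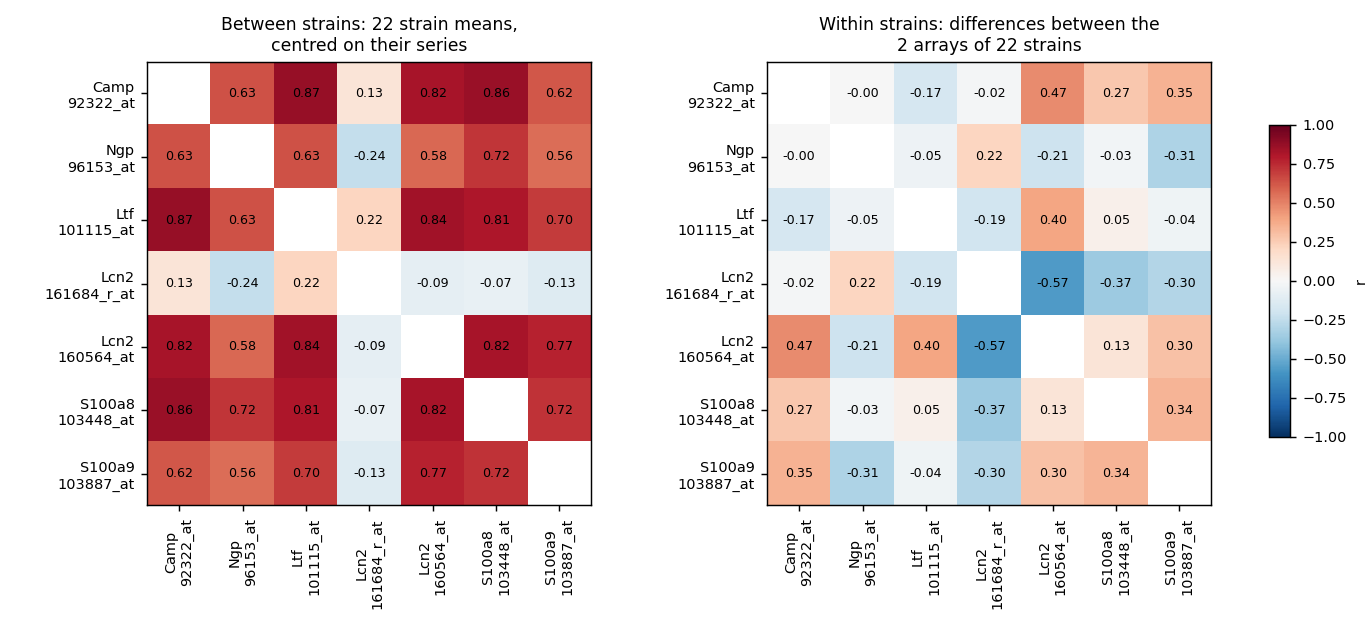
Pearson r for each pair of the 7 member probe sets, over 22 strain means centred on their array series (left) and over the differences between the 2 arrays of the 22 strains (right), on a colour scale from -1 to 1. Between strains the 15 pairs that do not involve Lcn2 161684_r_at lie between 0.56 and 0.87, and within strains the same pairs lie between -0.31 and 0.47.

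Position along the genome was compared with these patterns. Camp, Ngp and Ltf lie on chromosome 9, with 8 protein-coding genes between Camp and Ngp and 20 between Ngp and Ltf, and Lcn2 lies on chromosome 2. The 8 tested neighbours around Camp, Ngp and Ltf had r with Camp from -0.491, for Smarcc1, a subunit of a chromatin remodelling complex, to 0.156, for Nbeal2. Their r with Ngp ran from -0.240 to 0.218 and with Ltf from -0.329 to 0.247. By limma 0 of the 8 passed the strain effect (smallest adjusted p = 0.120), a share that differs little from the background, since 2.6% of the 5624 tested genes passed by their brightest probe set. Beside S100a8 and S100a9, S100a6 had r = 0.424 with S100a8 and S100a4 had r = -0.108, and neither passed (0.392 and 0.786). These correlations are given as descriptions without a test.

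The array series were compared over the 22 strain means. Camp was 1.86-fold higher in series A (11.43 ± 0.48, SD over 10 strains) than in series B (10.53 ± 0.34, SD over 12 strains), a difference B minus A of -0.90 ± 0.16 SE (limma, adjusted p = 0.000533), and S100a9 was 1.43-fold higher (10.59 ± 0.40 against 10.08 ± 0.44, -0.51 ± 0.17, 0.0329). The background for this direction was 11.1% of probe sets, and 2 of the 7 member probe sets passed. For Camp, 9 of the 12 strains of series B lay below every strain of series A. Ngp (-0.32, adjusted p = 0.103), Ltf (-0.32, 0.0890), Lcn2 by 160564_at (-0.34, 0.245), Lcn2 by 161684_r_at (0.04, 0.765) and S100a8 (-0.10, 0.678) were not called, which does not show that they were equal. With arrays centred on their medians, Ngp (-0.45, 0.0260) and Ltf (-0.44, 0.0226) passed too. The call of S100a9 ended without BXD40 and BXD42 (-0.48, 0.0764), without BXD32 (-0.46, 0.0618) and without any 1 of BXD18 replicate 2 (0.0531), BXD2 replicate 1 (0.0557) or BXD34 replicate 2 (0.0839), and Ltf passed without BXD33 replicate 1 (0.0468) or the strain BXD2 (0.0195), without both BXD32 and BXD2 (-0.31, 0.0239) and with all arrays and strain as a random block (0.0294). Lcn2 by 160564_at passed without BXD2 (-0.47, 0.0390). The stem cell receptor gene Kit moved the other way between the series, as given above. Over all tested probe sets 802 were called higher in series B and 826 in series A. Of 10 tested stem and progenitor genes, 2 were called higher in series B, Kit among them, and 1 in series A. Of 6 tested primary granule and progenitor genes, 2 were called higher in series B, among them Mpo (1.01, limma, adjusted p = 0.0196), and 0 in series A. The part of these genes in the differences of the members was not tested. The series and the sets of strains within them cannot be told apart.

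**Figure D4:**
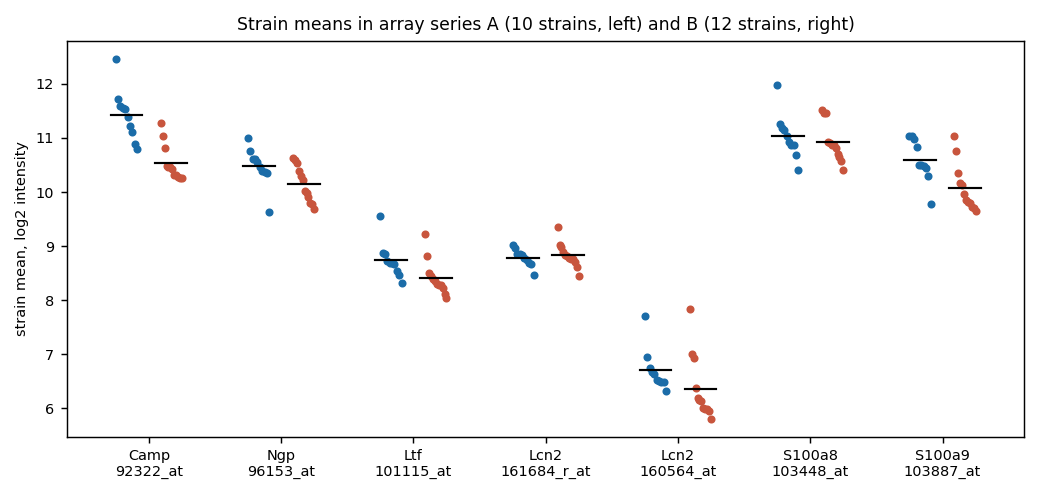
Strain means on the log2 intensity scale for each member probe set, in array series A (blue, 10 strains) and series B (red, 12 strains), with bars at the mean of the strains. Camp shows the widest step between series, 11.43 against 10.53, and S100a8 lies at 11.04 and 10.93; heights are not comparable between probe sets.

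Other genes of the neutrophil programme were examined in the same strains. The background over the 5624 tested genes, each by its brightest probe set, was 146 genes (2.6%) past the strain effect, 0.142% called higher in BXD32, 0.8% called higher in BXD2 and 0.853% called lower in BXD2. Of 12 tested genes of secondary and tertiary granules other than the members, 1 passed the strain effect. This was Chil3, which encodes the chitinase-like lectin Ym1 (adjusted p = 5.7e-07), and it was 2.32-fold higher in BXD32 than in the rest of series A (8.96 against 7.74, difference 1.22 ± 0.20 SE, adjusted p = 0.00547) and 0.72 higher in BXD2 (0.0623). Lyz2, lysozyme M, did not pass the strain effect (0.387) but was 2.15-fold higher in BXD2 than in the rest of series B (9.02 against 7.92, adjusted p = 0.0401). Of 6 tested genes of primary granules and granulocyte-monocyte progenitors, Mpo alone passed (0.0365), and neither Mpo nor any other of them was called in BXD32 or BXD2. The median difference over the tested genes of these lists was 0.23 for secondary and tertiary granule genes and 0.26 for primary granule genes in BXD32, and 0.21 and 0.14 in BXD2. The 6 members, each by its brightest probe set, had medians of 0.75 and 0.73, and all 5624 tested genes had medians of 0.02 and -0.02. BXD32 and BXD2 were looked at because members were called in them, and this choice favours larger medians for the members. The medians are therefore no test of the members against the other lists.

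Genes of mature neutrophil surfaces and effectors were listed too. Of 26 listed, 15 had a probe set and 9 were tested, and 1 passed the strain effect, Ncf4, which encodes a subunit of the phagocyte oxidase (adjusted p = 0.0224). Ncf4 was 2.39-fold higher in BXD2 than in the rest of series B (8.23 against 6.97, 0.00368) and differed by 0.01 in BXD32. The other 8 were called in neither strain. In BXD32 their differences were 0.85 for Clec4d, a lectin receptor (adjusted p = 0.830), 0.30 for Il1r2, 0.25 for the integrin chain Itgb2, 0.24 for the chemokine receptor Cxcr2, 8.35e-05 for Cd24a, -0.10 for Csf3r, the receptor for granulocyte colony-stimulating factor, -0.11 for Fcgr3 and -0.56 for the oxidase subunit Ncf1. In BXD2 they were 0.04 for Clec4d, -0.27 for Il1r2, 0.08 for Itgb2, -0.19 for Cxcr2, 0.09 for Cd24a, -0.15 for Csf3r, -0.60 for Fcgr3 and -0.42 for Ncf1. Thus 6 of the 9 lay above the rest in BXD32 and 4 of 9 in BXD2, with medians of 0.01 and -0.15. The summed intensity of the 15 genes was 3181 and 3618 on the BXD32 arrays, within the 2978 to 4041 of the other arrays of series A, and 3266 and 3543 on the BXD2 arrays, within the 2646 to 3802 of the others of series B. Cd24a and Csf3r, which stem and progenitor cells can express too, made up a median of 72.7% of that sum. Without them, a sum chosen after seeing the data, the other 13 genes gave 1038 and 1087 in BXD32, against 733.3 to 1396 on the other arrays of series A, and 891.5 and 1047 in BXD2, against 779.6 to 1242 in the rest of series B, so that both strains lay within the range of their series again. The listed genes too dim to be tested were all in this sum, so a value within the range does not show equal levels. The defining markers Itgam and Ly6g averaged under the limit for testing, as given above. The part of other cells in the strain differences of the members was not tested.

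Of 13 tested transcription factors of the granulocyte lineage 4 passed the strain effect: Klf4 (adjusted p = 4.06e-05), Irf8 (0.00147), Runx1 (0.0167) and Cebpb (0.0458). Klf4, a factor of monocytes and of stress responses, was 2.62-fold higher in BXD2 (10.15 against 8.76, 0.000978), and Gfi1, a repressor needed for neutrophil formation, was lower in BXD2 (6.62 against 7.84, difference -1.21, 0.00727). None of the 13 was called in BXD32. Cebpa, the master regulator of granulocyte commitment, differed by 0.39 in BXD32 and 0.23 in BXD2, and Spi1, which encodes PU.1, by -0.25 and 0.20, without passing. Among 8 tested receptors and partners of the member proteins none passed the strain effect by limma (smallest adjusted p 0.635, for the lipocalin-2 receptor Slc22a17; 0 at an unadjusted p under 0.05). Among 7 tested genes of the other S100 proteins or their partners none passed either (smallest 0.375, for S100a10; 2 at an unadjusted p under 0.05). Of 10 tested stem and progenitor genes Flt3 (0.0404) and Procr (0.00253) passed, and none was called in BXD32 or BXD2.

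**Figure D5:**
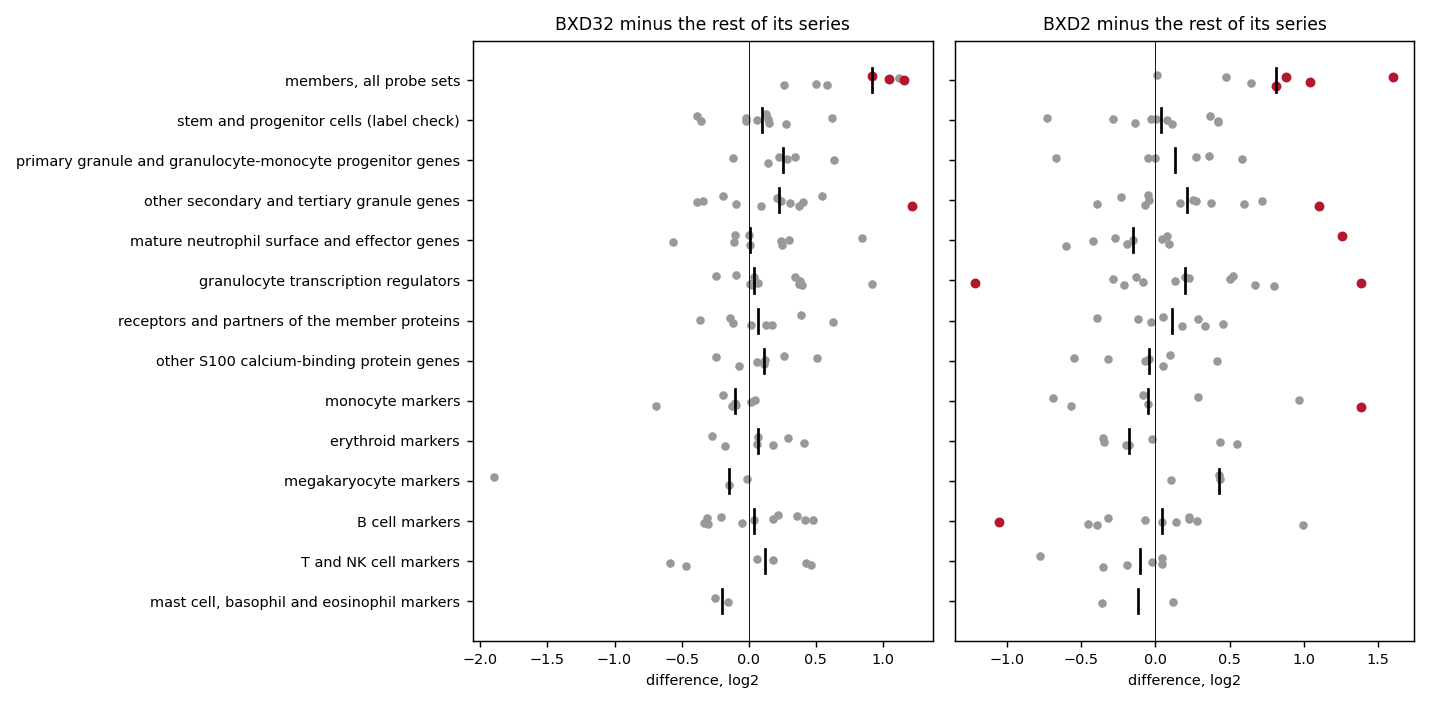
Difference on the log2 scale between BXD32 (left) or BXD2 (right) and the rest of its series, for the tested genes of each list. Each point is a gene (for the members, a probe set), red where the limma contrast had adjusted p below 0.05, and vertical bars are medians. The member row lies to the right of 0 in both panels, with 3 red points in BXD32 and 4 in BXD2, and the row of mature neutrophil genes is spread around 0. The strains shown were chosen by the calls of the members.

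Markers of other lineages that the sort could let through were listed as well. Of 7 tested monocyte markers Ccr2 (adjusted p = 1.04e-07) and Klf4 passed the strain effect, and their summed intensity, over 9 genes with a probe set, was 1899 and 1969 in BXD32, against 1861 to 2872 on the other arrays of series A, and 3288 and 3428 in BXD2, against 1924 to 4433 in the rest of series B. Of 7 erythroid markers Hba-a1 (1.97e-05) and Hbb-b2 (3.93e-07) passed, of 3 megakaryocyte markers Vwf (0.000447) and of 11 B cell markers Dntt (5.87e-05), Ighm (0.00417) and Jchain (0.0204). Dntt, the enzyme that adds bases at immunoglobulin and T cell receptor joints, was lower in BXD2 (-1.06, 0.000691). Of 6 T and NK cell markers (smallest adjusted p 0.176, for Il7r; 3 at an unadjusted p under 0.05) and 2 of mast cells, basophils and eosinophils (0.304, for Cpa3; 1 at an unadjusted p under 0.05) none passed by limma. No marker of these 6 lineages was called in BXD32. Their part in the strain differences of the members was not tested.

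The genes most like the 6 members were found by their r over the 22 centred strain means with the mean of the standardised members. They were Otub1, a deubiquitinase (0.781), Ifitm6, an interferon-induced membrane protein gene (0.746), Lilr4b, an inhibitory receptor of myeloid and mast cells (0.734), AI413582 (0.696), Unc119 (0.684), Gys1, glycogen synthase (0.679), Cyba, the membrane subunit of the phagocyte oxidase (0.677), Fn1, fibronectin (0.667), Slc4a1, the anion exchanger of red cells (0.655), and Slc48a1, a haem transporter (0.654). Of these 10, Lilr4b alone passed the strain effect (adjusted p = 0.0023), and in BXD2 it was 1.77 above the rest on the log2 scale (0.000118). With the other Lcn2 probe set, Otub1 (0.769) and Lilr4b (0.744) came first again, followed by Lyz2 (0.728).

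Each member had its own closest genes. For Camp these were Gys1 (0.769), Ech1 (0.724) and Cyba (0.694), for Ngp Otub1 (0.698), Rnf181 (0.675) and Slc5a6 (0.657), and for Ltf AI413582 (0.733), Lilr4b (0.732) and Otub1 (0.709). S100a8 was closest to Lilr4b (0.729), Otub1 (0.704) and Ifitm6 (0.701), and S100a9 to Ppp1r15a (0.824), P3h3 (0.821) and Acyp1 (0.764), with none of the closest genes of S100a8 among them. The r of Camp with Ltf and with S100a8 was above that of Camp with any tested gene outside the 6. Its r with Ngp (0.633) and with S100a9 (0.621) was below that with Gys1, Ech1 and Cyba. For S100a9, r with Ppp1r15a and with P3h3 was above that with any other member. Lcn2 by 160564_at was closest to Lyz2 (0.811), Lilr4b (0.761) and Dusp1 (0.693), and by 161684_r_at to Gstm2 (0.896), Fam83h (0.797) and Klf17 (0.789). The likeness is that of strain means over 22 strains on shared arrays, and no test was made of it.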

How the data were processed

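The authors deposited 1 table of intensities, with 12488 probe sets on each of 44 arrays. The 2% trimmed mean of every array lay between 200.071 and 200.092, so the deposited intensities had been scaled to a common mean; the software that summarised the probes is not given in the sources used here. All 44 scanner parameter files held the same text and recorded no batch. No 2 arrays held identical values. The platform's probe table named the genes, with symbols updated through Entrez identifiers in the RefSeq gene table; the arrays' files name no genome build. Gene order along chromosomes came from that table, and promoter windows with their coordinates from the RefSeq promoter table of GRCm38.p6.

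Deposited intensities were raised to a floor of 16 and put on the log2 scale. Array medians differed by 0.275 on the log2 scale, more than the limit of 0.1, and arrays were quantile normalised. After 66 control probe sets were dropped, 12422 were left, and those with a mean under the 40th percentile (6.00) were not tested, which left 7453. limma 3.58.1 in R 4.3.3 fitted 1 coefficient per strain to all 44 arrays; the strain effect was an F test over 20 contrasts within array series (22 residual and 4.37 prior degrees of freedom), and each strain was also set against the rest of its series. Series were compared over 22 strain means. Adjusted p is by Benjamini-Hochberg over all tested probe sets, with a threshold of 0.05. Correlations over strain means used 100000 two-sided permutations of strains within series, adjusted over 15 pairs, and those within strains 100000 sign flips. The intraclass correlation has a 95% interval from the F distribution. Precision is limited by the number of arrays. The fits of strains and of array series were tested on simulated data, and the correlations and list counts were not.

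All member probe sets are named. From each gene list the text names genes past the strain effect, or the smallest adjusted p where none passed, the 10 genes most like the members, and the 3 most like each; a gene with several probe sets is represented by its brightest. Genes called in BXD32 or BXD2, Kit, Cd34, Itgam, Ly6g, all tested mature neutrophil genes, Cebpa, Spi1 and the chromosomal neighbours were named in addition, after their values were seen. The members, lists, tests and alternatives were chosen with earlier results of these data known.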

Additional observations from a re-analysis of the deposited data

How the results depend on the processing

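The number of member probe sets past the strain effect was 4 in the main setting. It was 0 in series A alone and 0 in series B alone. It was 1 without BXD32, 2 without BXD2, 0 without both, and 2 to 4 when 1 array was left out. Over all probe sets the count was 209, with 54 in series A alone and 483 with the series not modelled, in which setting Ltf also passed (0.0178). The number past the series comparison, 2, was 4 with arrays centred on their medians, 1 without BXD40 and BXD42, 1 without BXD32, 4 without BXD2, and 1 to 3 when 1 array was left out. The 7 calls in single strains ranged from 3 to 9 when 1 array was left out and from 6 to 7 under other settings; without BXD40 and BXD42 they were 7. The 10 pairs past the correlation test were 4 in series A alone and 6 without BXD32 and BXD2, and 9 to 10 when 1 array was left out. With Lcn2 by 160564_at they were 15, and r turned from negative to positive for Ngp and Lcn2 (0.576), Lcn2 and S100a8 (0.822) and Lcn2 and S100a9 (0.769). The settings without BXD32 or BXD2 and the change of the Lcn2 probe set were chosen after seeing the data. The cause of these changes was not tested, and neither was the part of the smaller number of strains in settings that left strains out. A scanner batch could not be tried, since the parameter files record none. No paired analysis was possible because the labels give no replicate numbers shared between strains.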

Other observations

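Probe sets whose name ends in _r_at, a suffix that the array's maker gave to probe sets built by relaxed rules of probe choice, were frequent among those most like the brighter Lcn2 probe set 161684_r_at. Of the 20 probe sets with the highest r over the 22 centred strain means, 5 had the suffix (25.0%), against 474 of all 7452 tested probe sets other than 161684_r_at itself (6.36%), these 20 included. The 20 values of r lay between 0.710 and 0.896. This is a description of 1 probe set, with no test.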
